A study of Homo sapiens with 63 samples.

Results

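Aminoacyl-tRNA synthetases join each amino acid to its tRNA, and their mRNAs were followed here across gradients of HEK293 lysates, a human embryonic kidney cell line. The members are the 20 cytosolic enzyme genes, the 17 mitochondrial enzyme genes and 3 scaffold genes, 40 of the 11074 genes in the table. The rule went by symbol: a letter followed by ARS, with a final 2 for the mitochondrial enzymes, plus EPRS, FARSA, FARSB, AIMP1, AIMP2 and EEF1E1. The 3 conditions were amino acid starvation of 1 h in a balanced salt medium that kept vitamins and 10% serum, serum starvation of 2 h, and log phase growth in full medium with 10% serum. All cells received cycloheximide, which holds ribosomes on mRNA, for 10 min before lysis. Each condition gave 1 gradient of 20 fractions, numbered 3 to 22, from which poly(A) RNA was sequenced. No difference between conditions therefore has a replicate check or a p-value, and the odd and even fractions of a gradient give the only spread. Whether the low or the high numbers are the heavier end is not stated in the labels.

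Cytosolic synthetases charge the tRNAs used by cytosolic ribosomes, while a separate nuclear-encoded set is imported to charge the tRNAs of mitochondria. GARS and KARS each serve both compartments from a single gene. In mitochondria glutaminyl-tRNA is made by amidation, so no mitochondrial glutaminyl enzyme is listed. In animal cells 8 cytosolic enzymes (EPRS, IARS, LARS, QARS, MARS, KARS, RARS and DARS) are held with AIMP1, AIMP2 and EEF1E1 in a multisynthetase complex. When amino acids run short, uncharged tRNA activates the kinase GCN2, and the transcription factor ATF4 that follows is known to raise many cytosolic synthetase genes. Starvation also lowers mTORC1 activity, which is known to move mRNAs with a 5′ terminal oligopyrimidine tract off polysomes.

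The deposited signal of the 60 fractions summed from 36830 to 66981600 per fraction over genes, so the authors' values carry an unknown scale in every fraction. The fraction totals were lowest in fraction 22 of both starved gradients and in fraction 6 of log phase. Results are therefore given on the deposited scale and, where the scale could matter, as shares within a fraction, which need no scale between fractions. Of 6 HEK293 markers, 4 were listed, among them the neurofilament genes NEFM and NEFL and the intermediate filament gene VIM. NEFM was at 458 per 1000000 of the gradient's signal without amino acids, 507 without serum and 346 in log phase, NEFL at 288, 269 and 380, and VIM at 350, 379 and 282. The neuronal intermediate filament gene INA was low, at 1.68, 2.01 and 2.51. PAX2 and LHX1 were not analysed here, and of 8 markers of blood, liver, fibroblast, muscle and endothelium 0 were listed.

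Within a fraction, the cytosolic enzymes took a growing share of the signal towards the higher-numbered end of all 3 gradients. Taken per 1000000 of the fraction's own total (written below as ppm), their 20 genes summed to 92.8 in fraction 3 and 11378 in fraction 22 without amino acids. Without serum the sums were 61.5 and 9942, and in log phase 158 and 8437. The 17 mitochondrial enzymes had 22.1 and 987 in the same fractions without amino acids, 18.4 and 897 without serum, and 61.6 and 877 in log phase. Both classes also had a local maximum in fraction 7 of every gradient, as the plot of classes by fraction shows, at 1389 for the cytosolic enzymes and 213 for the mitochondrial ones without amino acids, 1755 and 295 without serum, and 1647 and 566 in log phase.

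**Figure D1:**
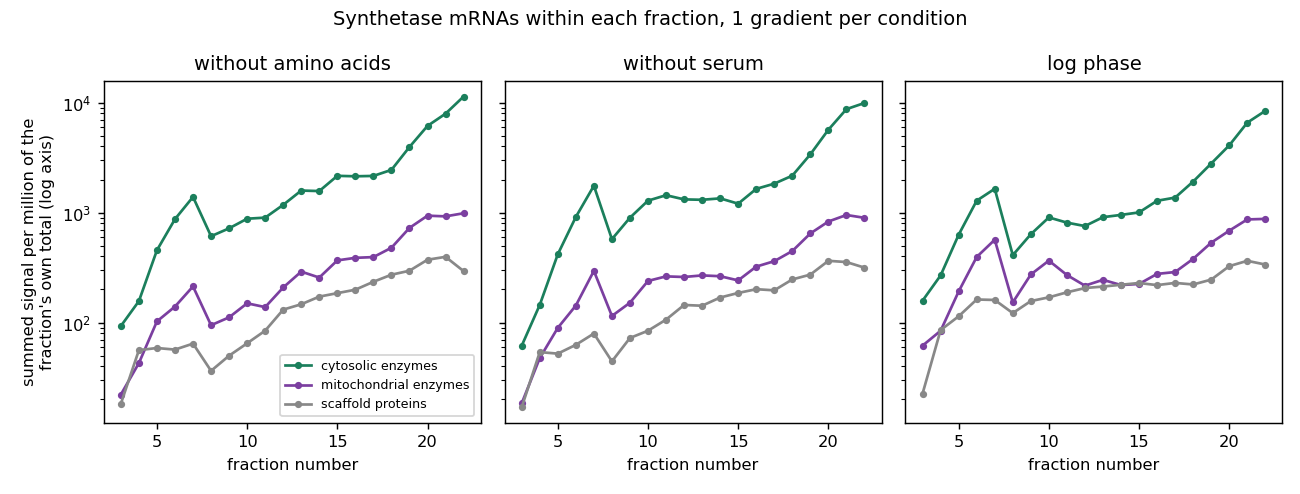
Summed signal of the cytosolic, mitochondrial and scaffold genes in ppm of each fraction's own total (log axis), against fraction number, for the gradients without amino acids (left), without serum (middle) and in log phase (right). The cytosolic line climbs to 11378, 9942 and 8437 in fraction 22, and the distance between the cytosolic and mitochondrial lines is smallest in log phase around fraction 9.

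The cytosolic sum over the mitochondrial sum is free of any scale between fractions. Its median over fractions was higher in both starved gradients, at 5.88 without amino acids and 5.10 without serum against 3.60 in log phase. The gradients were close together in fraction 18, at 5.11, 4.85 and 5.05, and in fraction 19, at 5.450, 5.247 and 5.254. Without serum the ratio was thus below log phase in these fractions, and in fraction 4 as well (3.05 against 3.19). The ratio was at its lowest in fraction 4 without amino acids (3.66) and without serum (3.05), and in fraction 9 in log phase (2.32). It was at its highest in fraction 22 of each gradient, at 11.5, 11.1 and 9.62. Without QARS, the cytosolic glutaminyl enzyme, the medians were 4.54, 4.10 and 3.25.

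The position of an mRNA, its mean fraction number weighted by signal, placed the cytosolic class at higher-numbered fractions than the mitochondrial class in each gradient. The median position of the cytosolic enzymes was 16.05 without amino acids, 16.77 without serum and 18.16 in log phase. That of the mitochondrial enzymes was 15.21, 15.77 and 17.77, and that of all 10889 tested genes 15.12, 15.62 and 16.94. The cytosolic minus mitochondrial difference was 0.84 without amino acids (0.91 in odd and 0.73 in even fractions), 1.01 without serum (1.00 and 0.88) and 0.39 in log phase (0.51 and 0.28), and without fraction 21 the value without serum was 0.51. The log phase value was 0.26 without fraction 9 and 0.25 without the 4 outermost fractions. With every fraction set to an equal total it was 1.93, 2.26 and 2.30, so the order of the gradients depends on the fraction scale, and with log2(signal + 1) as the weight it was 0.12, 0.08 and -0.03. All 40 members were tested, since each had a mean signal of at least 5 per gradient and was above 0 in at least 15 of 20 fractions.

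Among the cytosolic enzymes, the highest log phase positions were those of NARS, SARS and FARSA, the asparaginyl and seryl enzymes and the catalytic subunit of the phenylalanyl enzyme. NARS lay at 16.70 without amino acids, 17.42 without serum and 19.04 in log phase. FARSA lay at 16.91, 17.21 and 18.91 in the same order. The lowest were QARS at 12.16, 12.30 and 17.34, the methionyl enzyme MARS at 15.82, 16.15 and 17.57, and the glycyl enzyme GARS at 15.31, 15.70 and 17.61. QARS was the cytosolic enzyme farthest from the rest in both starved gradients, more than 2 fractions below the next one, KARS, the lysyl enzyme, at 14.58 without amino acids and 15.13 without serum.

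Among the mitochondrial enzymes, EARS2 (glutamyl) and HARS2 (histidyl) had some of the highest log phase positions. EARS2 lay at 16.50 without amino acids, 17.46 without serum and 18.92 in log phase, and HARS2 at 16.13, 16.51 and 18.33. The lowest were RARS2 (arginyl) at 13.68, 13.57 and 15.54, VARS2 (valyl) at 15.50, 15.19 and 16.56, and FARS2 (phenylalanyl) at 15.09, 15.50 and 16.66. The spread of the mitochondrial class in log phase, 15.54 to 18.92, was wider than that of the cytosolic class, 17.34 to 19.04. The scaffold mRNAs differed among themselves: EEF1E1 lay at 14.50, 14.48 and 15.80, against 15.92, 16.83 and 18.19 for AIMP2 and 15.23, 15.91 and 17.49 for AIMP1.

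**Figure D2:**
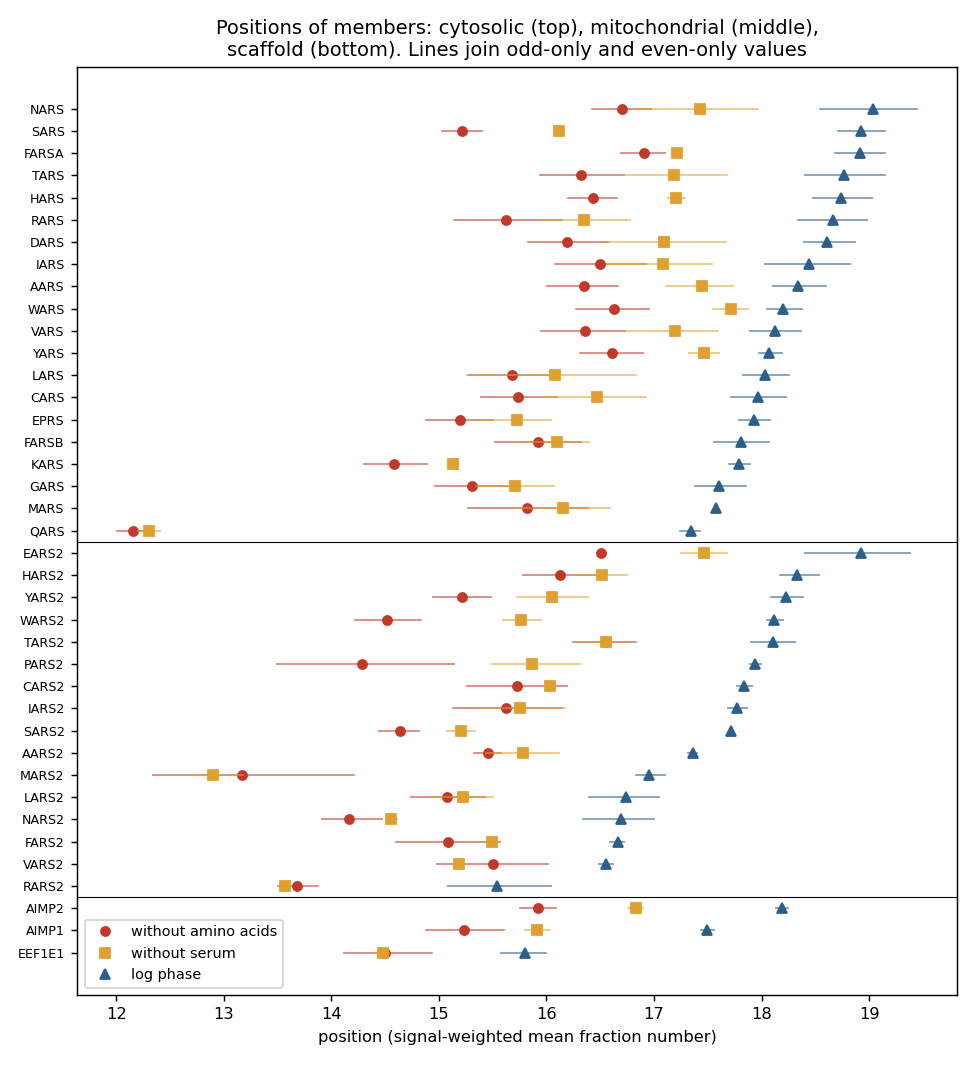
Positions of 39 members in fraction numbers without amino acids (circles), without serum (squares) and in log phase (triangles), with lines joining the values from odd and from even fractions alone. Rows are ordered by log phase position within the cytosolic, mitochondrial and scaffold groups. QARS and MARS2 lie farthest left in the starved gradients, at 12.16 and 13.17 without amino acids and at 12.30 and 12.90 without serum.

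Setting enzymes for the same amino acid side by side gave 18 pairs, in which FARS2 was paired with both FARSA and FARSB, and EPRS, which charges glutamate and proline, with both EARS2 and PARS2. The cytosolic partner had the higher position in 15 of 18 pairs in each of the 3 gradients, by a median of 0.87 without amino acids, 1.12 without serum and 0.67 in log phase. With equal fraction totals the counts were 15, 16 and 17. The arginyl pair differed by 1.95, 2.78 and 3.13 fractions and the asparaginyl pair by 2.53, 2.87 and 2.34. The methionyl pair differed by 2.65 and 3.25 in the starved gradients and by 0.62 in log phase. The glutamyl pair went the other way, with EPRS minus EARS2 at -1.31, -1.74 and -0.99, although with equal totals EPRS lay above EARS2 without amino acids, by 0.82.

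The enzymes of the multisynthetase complex lay lower than the other cytosolic enzymes on the deposited scale. Their median positions were 15.65 without amino acids, 16.11 without serum and 17.98 in log phase, against 16.35, 17.20 and 18.27 for the 12 others. The difference was -0.70, -1.09 and -0.29. With equal fraction totals it was 0.01, -0.45 and -0.76, so the difference without amino acids rests on the scale. The 9 cytosolic enzymes with the class I catalytic fold had a median log phase position of 18.07 and the 10 with the class II fold 18.67, EPRS being left out because it holds both.

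To compare gradients, a shift was taken as the difference of a gene's positions after subtracting the value of the median tested gene, which was -1.80 fractions for amino acid starvation against log phase, -1.35 for serum starvation against log phase and -0.47 between the starvations. With equal totals these medians were 1.72, 1.55 and 0.13, so a shift says how a gene moved relative to the others and not in which direction it moved in the tube. A shift met the size rule at 1 fraction or more with at least 0.5 in the same direction in odd and in even fractions. Without amino acids, 9 of 40 members were lower than in log phase by this rule and 1 was higher, beside 9.57% and 6.84% of all tested genes. Without serum, 5 of 40 were lower and 0 higher, beside 9.86% and 5.7% of all genes, and leaving out fraction 18 or 19 made 8 lower. With equal totals 13 were lower and 7 higher without amino acids, and 13 lower and 4 higher without serum. Between the starvations 1 member was lower and 0 higher, beside 1.06% and 2.01%. Both starvations share the log phase gradient, so their values are not independent.

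On the deposited scale the lower cytosolic mRNAs were QARS, SARS, KARS and RARS. Of these 3 belong to the multisynthetase complex, which holds 8 of the 20 cytosolic enzymes. QARS had a shift of -3.38 without amino acids (odd -3.45, even -3.31) and -3.69 without serum (odd -3.91, even -3.47). SARS had -1.91 and -1.46, and KARS -1.41 and -1.31. RARS, the arginyl enzyme, had -1.24 without amino acids and fell short of the rule without serum, at -0.97, although it met it there under spike-in scaling (-1.08) and with equal totals (-1.74). All 4 stayed lower with equal totals, at -3.12, -2.83, -1.85 and -1.80 without amino acids. DARS, HARS, NARS, TARS, WARS and YARS then met the rule there as well, and of these DARS alone is in the complex. MARS, also in the complex, was then higher, at 1.35. Of QARS, SARS, KARS and RARS, KARS alone was above 0 with log2(signal + 1) as the weight, at 0.04 without amino acids and 0.0085 without serum. No member met the rule with that weight. The cytosolic enzymes farthest the other way were YARS, the tyrosyl enzyme, at 0.34 without amino acids and WARS, the tryptophanyl enzyme, at 0.86 without serum, neither past the rule, and with equal totals these were -1.10 and -0.77. GARS, the other gene that serves both compartments, had -0.49 and -0.55.

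**Figure D3:**
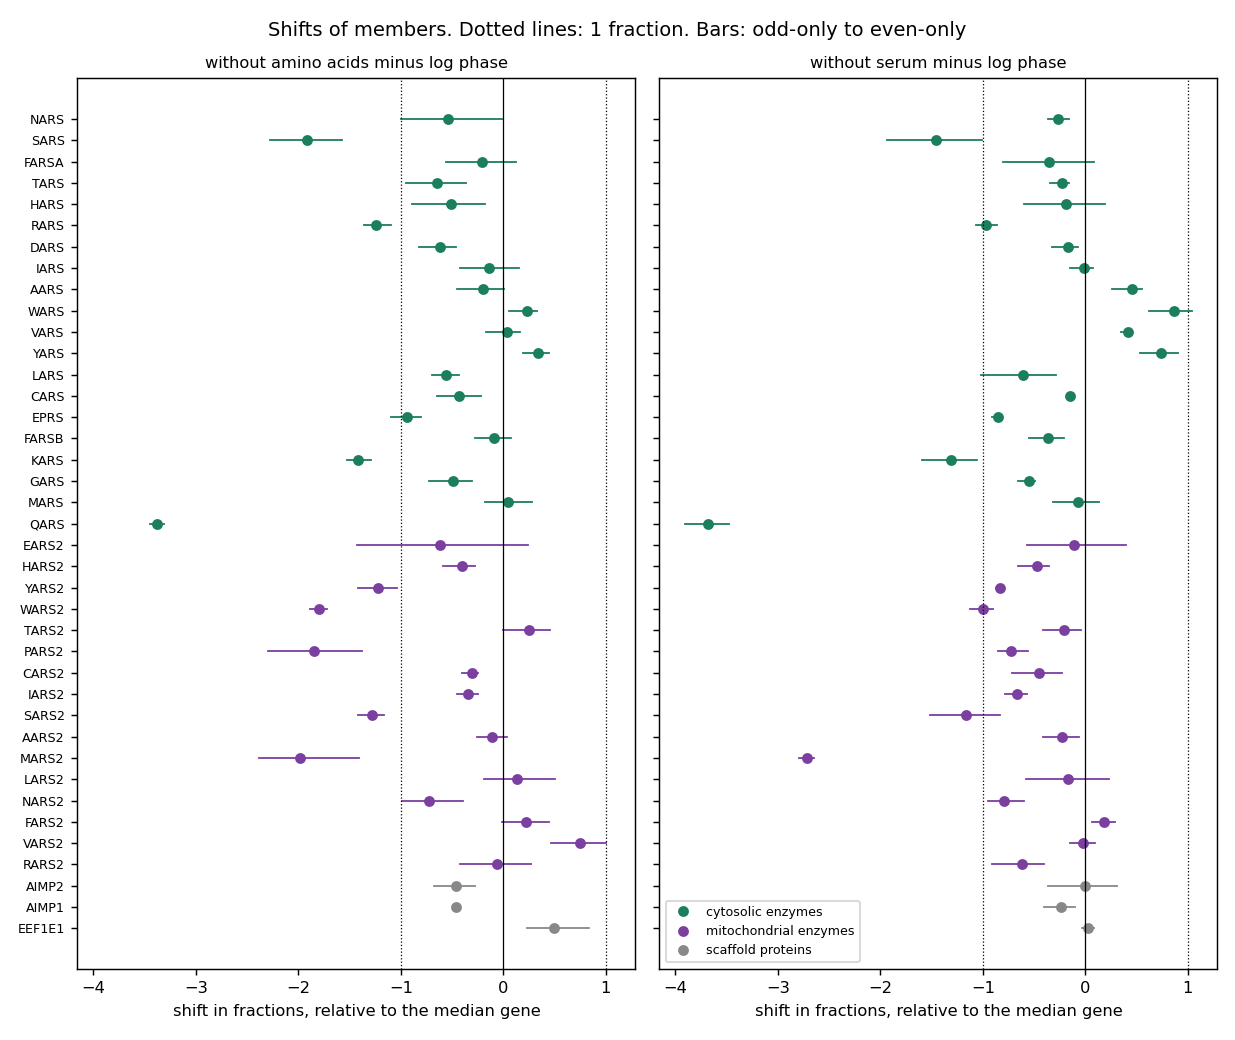
Shifts of 39 members in fractions relative to the median gene, without amino acids minus log phase (left) and without serum minus log phase (right). Points use all fractions, bars run between the odd-only and even-only values, and dotted lines mark 1 fraction in either direction. QARS is at -3.38 and -3.69 and SARS at -1.91 and -1.46, both left of the dotted line in both panels.

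Within fractions, QARS differed between the gradients mainly in the middle of the numbering. Its share of a fraction's own total without amino acids ran from 7.05 ppm in fraction 3 to 495 in fraction 7, with a median of 227. Without serum it ran from 5.64 to 690, with a median of 214, and in log phase from 16.6 to 380, with a median of 112 and the highest value in fraction 22. In fraction 10 the shares were 317 without amino acids, 459 without serum and 141 in log phase. In fraction 20 they were 218, 215 and 216. The starved gradients were above log phase in the middle of the numbering and level with it at the high end. Averaged over same-numbered fractions, the log2 ratio to log phase in fractions 8 to 12 was 1.43 without amino acids and 1.76 without serum, higher in 5 of 5 fractions each, and in fractions 18 to 22 it was 0.02 and 0.05. Fractions 8 to 12 held 61.3% of the QARS signal without amino acids, 60.1% without serum and 9.35% in log phase, where the median cytosolic enzyme had 20.2%, 18.3% and 3.97%.

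SARS differed from QARS in that it was above log phase along nearly the whole gradient. In fraction 10 it had 114 ppm without amino acids, 134 without serum and 45.2 in log phase, and in fraction 20 it had 825, 781 and 456. Its mean log2 ratio to log phase in fractions 13 to 17 was 1.73 without amino acids and 1.33 without serum, the highest of the 37 enzymes in both. KARS was above log phase in fractions 13 to 17 (0.71 and 0.48) and below it in the last fraction, with 358 ppm without amino acids and 435 without serum against 588 in log phase.

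**Figure D4:**
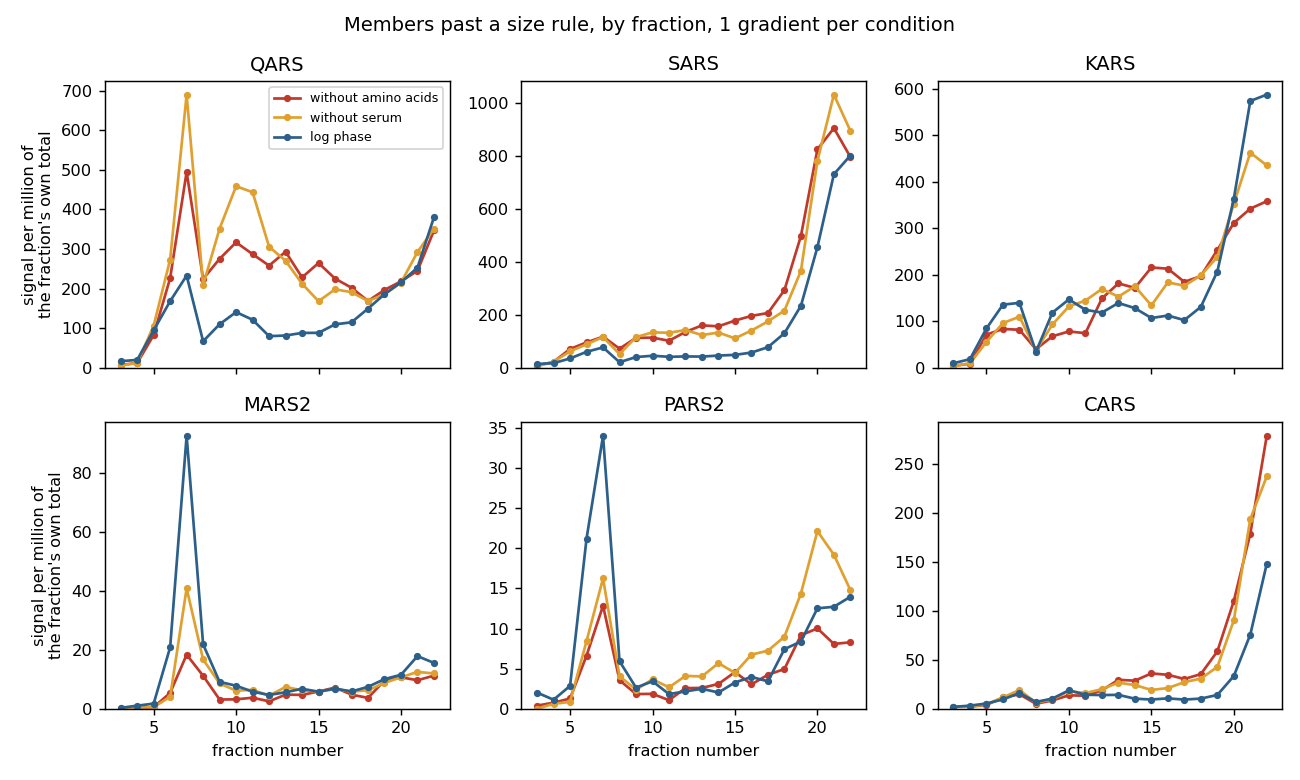
Share of each fraction's own total (ppm) against fraction number for QARS, SARS, KARS, MARS2, PARS2 and CARS, with each panel on its own axis from 0, for the gradients without amino acids, without serum and in log phase. QARS is above log phase in both starved gradients from fraction 6 to 18, MARS2 and PARS2 peak in fraction 7 of log phase, and CARS reaches 279 and 238 in fraction 22 of the starved gradients against 148 in log phase.

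The lower mitochondrial mRNAs were MARS2, PARS2, WARS2, SARS2 and YARS2, which charge methionine, proline, tryptophan, serine and tyrosine. MARS2 had a shift of -1.99 without amino acids and -2.71 without serum. PARS2 had -1.85 and -0.72, WARS2 -1.80 and -0.9998, SARS2 -1.28 and -1.16, and YARS2 -1.22 and -0.84. MARS2 and SARS2 met the rule in both starvations and the other 3, on the deposited scale, without amino acids alone, WARS2 falling just short of 1 without serum. With equal totals WARS2 and YARS2 met it without serum too, at -2.18 and -1.49, as they did with spike-in scaling, at -1.30 and -1.03. The SARS2 calls were lost without fraction 9 (-0.92 and -0.81). WARS2, SARS2 and YARS2 were still below 0 with equal totals, at -2.80, -0.85 and -1.50 without amino acids. MARS2 and PARS2 were not, at 0.98 and 0.07 without amino acids. Without serum MARS2 was then at -0.096, short of the rule, and PARS2 at 1.40, which met the rule as higher. PARS2 was also the 1 member lower without amino acids than without serum, at -1.11 (-1.28 with equal totals, and -0.92 without fraction 20), and VARS2 was farthest the other way at 0.79. Among the cytosolic enzymes the same contrast ran only from -0.64 for AARS, the alanyl enzyme, to 0.32 for QARS.

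Within fractions, the share of MARS2 peaked in 1 low-numbered fraction. MARS2 had 18.3 ppm in fraction 7 without amino acids, 40.8 without serum and 92.5 in log phase, against medians over fractions of 4.79, 6.34 and 7.14. The log phase value rests on a signal of 6.28 in a fraction whose total of 67870 was the second lowest of that gradient. That fraction weighs little on the deposited scale and as much as any other with equal totals. PARS2 had a local peak in the same fraction, at 12.8, 16.2 and 34.0 ppm, and its log phase value there rests on a signal of 2.31. In fraction 20 PARS2 had 10.0, 22.1 and 12.5, so that without serum its highest share was in fraction 20.

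As a class, the cytosolic enzymes had a median shift of -0.50 without amino acids and -0.25 without serum, and the mitochondrial enzymes -0.35 and -0.47. With equal totals the cytosolic medians were -0.98 and -0.79 and the mitochondrial ones 0.50 and 0.17, so the mitochondrial direction turned with the scale. Without fraction 21 the mitochondrial median without amino acids was -0.17, and without fraction 20 the cytosolic one without serum was -0.51. The 3 scaffold genes had shifts between -0.46 and 0.50, and none met the rule. In same-numbered fractions, which need no scale, the cytosolic median was above the mitochondrial one from the low to the high numbers. In fractions 13 to 17 without amino acids, 20 of 20 cytosolic enzymes were above log phase, with a median log2 ratio of 0.73, against 10 of 17 mitochondrial enzymes with a median of 0.31 and 7069 of 10889 genes with 0.21. Without serum the counts were 16 of 20 and 9 of 17, with medians of 0.35 and 0.03, and -0.02 for all genes. In fractions 8 to 12 without amino acids the cytosolic median was -0.19 and the mitochondrial one -0.85, beside -0.70 for all genes. In fractions 3 to 7 they were -0.62 and -1.06, beside -0.81, and in fractions 18 to 22 0.46 and 0.25, beside 0.22. Without serum they were -0.82 and -1.06 in fractions 3 to 7, 0.07 and -0.19 in 8 to 12, and 0.31 and 0.20 in 18 to 22. The values for all genes there were -0.83, -0.38 and 0.20.

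The level of a gene, its signal summed over the gradient per 1000000 of the gradient's total, was higher for the cytosolic enzymes than for the mitochondrial ones. This compares genes on the length-normalized scale that kallisto gives. The 20 cytosolic genes summed to 1624 without amino acids, 1816 without serum and 2035 in log phase, and the 17 mitochondrial genes to 273, 318 and 387. The cytosolic partner had the higher level in 17 of 18 pairs in each gradient, the cysteinyl pair being the exception, with a CARS over CARS2 ratio of 0.49, 0.49 and 0.29. The median ratio over pairs was 5.21, 4.98 and 4.67. YARS was the most abundant member in log phase, at 169 without amino acids, 199 without serum and 303 in log phase, and QARS the most abundant in the starved gradients, at 249, 269 and 140.

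A level difference was the log2 ratio with a pseudocount of 1, minus its median over genes, which was -0.59 for amino acid starvation against log phase, -0.43 for serum starvation against log phase and -0.17 between the starvations. It met the size rule at 1 or more with at least 0.5 in odd and in even fractions, and all 40 members had the level of 5 it needed in at least 1 of the 2 gradients. QARS and CARS were higher by this rule in both starvations, 2 of 40 members, and 0 were lower. Of all genes, 4.96% were higher and 2.84% lower for amino acid starvation, and 3.06% and 0.903% for serum starvation. The share of members that were higher was thus close to that of all genes for amino acid starvation. Between the starvations 0 members met the rule, beside 0.187% of genes higher and 0.0401% lower. QARS differed from log phase by 1.41 without amino acids and 1.37 without serum. The call without amino acids was lost with equal totals, at 0.93, and with scaling by the ERCC spike-in RNAs, at 0.97. CARS, the cysteinyl enzyme, had levels of 25.7 without amino acids, 27.3 without serum and 17.5 in log phase. Its difference, with the median subtracted, was 1.12 and 1.05, and with equal totals 1.22 and 1.07. Before the median was subtracted it was 0.53 and 0.61, and that of QARS 0.82 and 0.94, all short of 1. Scaled by the spike-ins, the CARS values were 1.003 and 0.98, so the call without serum was lost, and both calls were lost with a pseudocount of 10, at 0.74 and 0.71.

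Unlike QARS, CARS was above log phase at the high end of the numbering. It had 279 ppm in fraction 22 without amino acids and 238 without serum, against 148 in log phase. Its mean log2 ratio was 1.495 and 1.29 in fractions 18 to 22, 1.488 and 1.07 in 13 to 17, and -0.15 and 0.07 in 8 to 12. QARS was above log phase in fractions 13 to 17 too, at 1.32 and 1.10. The next largest level differences were those of EPRS (0.97 without amino acids and 0.95 without serum), MARS (0.82 and 0.74) and SARS (0.76 and 0.69), none past the rule. With equal totals EPRS was at 1.54 and 1.34, MARS at 1.06 and 0.83 and SARS at 0.93 and 0.86. AARS, at 0.43 and 0.59 on the deposited scale, was then at 1.26 and 1.14. The lowest were HARS2 (-0.88 and -0.60) and DARS (-0.77 and -0.47). With equal totals these were near 0, at -0.11 and -0.05 for HARS2 and at 0.10 and 0.13 for DARS. The class medians relative to all genes were 0.14 and 0.18 for the cytosolic and -0.03 and 0.29 for the mitochondrial enzymes, and with equal totals 0.57 and 0.38 for the cytosolic and -0.058 and 0.086 for the mitochondrial ones.

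**Figure D5:**
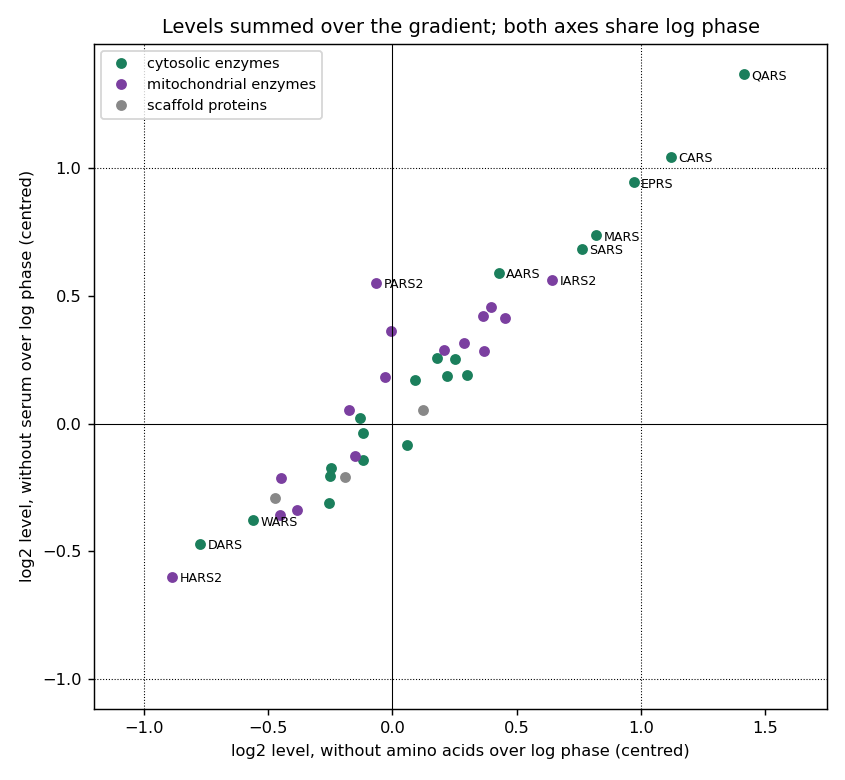
Centred log2 level difference from log phase without amino acids (horizontal) and without serum (vertical) for 39 members, with dotted lines at the size rule of 1. QARS (1.41 and 1.37) and CARS (1.12 and 1.05) are the members beyond both lines, and both axes share the log phase gradient.

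Promoter sequence from RefSeq (GRCh38.p14, 250 bases before and 50 after an annotated start) was held for 33 of the 40 members: 16 cytosolic, 14 mitochondrial and 3 scaffold genes. The search was for TGATGNAA, the core of the amino acid response element that ATF4 binds with C/EBP partners, on either strand (TTNCATCA on the other). It was found for 8 of 33 members (24.2%), 7 of them cytosolic (7 of 16, 43.8%) and 1 mitochondrial (1 of 14, 7.14%), beside 2.43% of the tested genes matched by symbol and 4.46% of all 27305 genes with a promoter entry. Within 50 bases of an annotated start it was held by 6 of 16 cytosolic enzymes, beside 0.77% of tested genes and 1.33% of all. A match is a match of letters and was not tested for binding. The 28-base windows are shown because 6 of the 8 lie within 50 bases of an annotated start. Matched letters are in capitals, and each window is read 5′ to 3′ on the gene's strand.
CARS: ggggcggcggTTGCATCAgattctagga
MARS: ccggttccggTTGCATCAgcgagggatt
IARS: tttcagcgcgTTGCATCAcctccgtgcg
TARS: cgcctttcgaTTGCATCAgctggtccag
GARS: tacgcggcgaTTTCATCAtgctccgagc
NARS: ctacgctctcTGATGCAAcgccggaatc
AARS: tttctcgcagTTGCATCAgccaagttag
YARS2: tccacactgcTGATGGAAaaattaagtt

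The windows lie at chr11:3057408-3057435 (CARS, minus strand), chr12:57488054-57488081 (MARS, plus), chr9:92293693-92293720 (IARS, minus), chr5:33440957-33440984 (TARS, plus), chr7:30594835-30594862 (GARS, plus), chr18:57621805-57621832 (NARS, minus), chr16:70289676-70289703 (AARS, minus) and chr12:32756077-32756104 (YARS2, minus). Counted from the annotated start, the matched letters began at -2 in CARS, -4 in MARS, -13 in IARS and 3 in TARS, so that in CARS and MARS they span the start itself. They began at -33 in GARS and 15 in NARS, and at -187 in AARS and -197 in YARS2. CARS, TARS and GARS have 2 annotated starts each, and their counts are from a single one of these. For GARS that start is at 30594878, and the gene is annotated from 30594735. For TARS these are 33440965 and 33440696. The 7 cytosolic enzymes with a match had a median level difference of 0.30 without amino acids and 0.25 without serum, from -0.12 for NARS to 1.12 for CARS without amino acids, against 0.18 and 0.19 for the 9 cytosolic enzymes searched without a match, whose highest value was that of QARS. On the deposited scale 0 of the 7 with a match were lower in position by the size rule in either starvation. Of the 9 without a match 44.4% were without amino acids and 33.3% without serum, beside 9.57% and 9.86% of all genes. With equal totals NARS and TARS, which have a match, were lower in both starvations. Their values were -1.02 and -1.52 without amino acids and -1.13 and -1.42 without serum. MARS, with a match, was then higher without amino acids, at 1.35. HARS, without a match, was then lower in both, at -1.89 and -1.63, and WARS without amino acids, at -1.43.

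The annotated starts were read as well, because the terminal oligopyrimidine tract is defined there as a C followed by C or T. A run of 5 or more from the start was held by 2 of 33 members, QARS and WARS2 (6.06%), beside 7.68% of the 8699 tested genes matched by symbol and 5.14% of all genes with a promoter entry. A run of 7 or more was held by 0 of 33 members, beside 4.16% of tested genes and 2.68% of all. The windows below give 20 bases before the start in lower case and the 10 bases after it in capitals. They show QARS and the later of the starts annotated for WARS2, both lower in position without amino acids, beside KARS and MARS2, which were lower with no run at the annotated start itself, although KARS has one of 5 beginning within 5 bases of it.
QARS: gcagactggggcctaagtttCTTTTAGTTT
WARS2: ccaaacaagacggctccgccCTTCTCAAGA
KARS: attaacgtactatcctccttACTTTTGGGT
MARS2: cgcctctcacacgtgctgtcAGAACGCCGC

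These windows are at chr3:49104748-49104777 (QARS, minus strand), chr1:119140644-119140673 (WARS2, minus), chr16:75647656-75647685 (KARS, minus) and chr2:197705349-197705378 (MARS2, plus). The run is 5 bases long in QARS and 6 in WARS2, and no run begins at the annotated start of KARS or MARS2. Across the tested genes matched by symbol, 668 had a run of 5 or more at a start, with a median shift of -0.45 without amino acids and -0.39 without serum, and 29.9% and 29.3% of them were lower by the size rule. For the 8031 without such a run the medians were 0.02 and 0.03, and 8.08% and 8.07% were lower. Annotated starts can differ from the start used in these cells by several bases, and 13 of 33 members (39.4%) had a run of 5 or more beginning within 5 bases of the start, beside 29.7% of tested genes and 25.2% of all.

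HARS and HARS2 stand head to head on chromosome 5, with 84 bases between their annotated starts (chr5:140691371-140691454, of which 59.5% are G or C). The stretch is shown on the plus strand, which is the strand of HARS2, because both genes are read away from it.
HARS-HARS2: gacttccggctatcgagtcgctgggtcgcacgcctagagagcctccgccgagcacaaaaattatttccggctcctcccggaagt

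The levels of this pair were 40.5 without amino acids, 46.8 without serum and 73.4 in log phase for HARS, against 8.27, 11.6 and 24.7 for HARS2. The HARS over HARS2 ratio was 4.90, 4.03 and 2.97. Their centred level differences from log phase were -0.25 and -0.21 for HARS and -0.88 and -0.60 for HARS2, and neither met the rule. With equal totals these were 0.13 and 0.12 for HARS and -0.11 and -0.05 for HARS2, so the direction for HARS depends on the fraction scale.

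Of the 12 listed related genes, 1 was lower in position without amino acids and 1 without serum, a share close to the 9.57% and 9.86% of all genes, and 0 were higher. With equal totals 4 were lower in each. QRSL1, the catalytic subunit of the mitochondrial amidotransferase that makes glutaminyl-tRNA, had a shift of -1.31 without amino acids and -0.76 without serum. GATC, another subunit of it, had -0.67 and -1.15, whereas GATB, the third subunit, had 0.37 and 0.37. PSTK, the kinase on the way to selenocysteinyl-tRNA, was the 1 lower without amino acids than without serum, at -1.01. None of the 11 with a measured level difference met the level rule, and XPOT, the tRNA export receptor, had -0.35 and -0.40.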

How the data were processed

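The submitters' processing notes name kallisto 0.44.0, sleuth 0.29.0 and the build hg38. The deposited values are called TPM by the authors, but their fraction totals differ too widely for TPM, so they are treated as a signal with an unknown scale per fraction. No source used here gives read depths, so no counting error could be attached. The 29 ERCC spike-in rows and the luciferase row were kept out of the genes. Positions, shifts, levels and size rules were computed with Python 3.11.15 and pandas 2.3.3, and the procedure was tested on simulated data. Members and lists were chosen with earlier results of these data known. Values were named for members past a size rule, the 3 highest and lowest log phase positions and the extreme shifts of each enzyme class, GARS, KARS and same-amino-acid pairs. Ratios within fractions and the analysis without fractions 6, 7 and 22 were added after seeing the data. Protein lengths and N-terminal residues were planned and not analysed here. 1 member enters the counts and class values and its own values are not reported here. The lysates were not analysed here. All 40 symbols matched the GRCh38.p14 gene table, 18 under a newer name (AARS is AARS1).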

Additional observations from a re-analysis of the deposited data

How the results depend on the processing

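With 1 gradient per condition and no read depths, what limits these results is the scale of the fractions, which can be changed but not checked. Setting every fraction to an equal total put the cytosolic minus mitochondrial position at 1.93 without amino acids, 2.26 without serum and 2.30 in log phase. It put the median shift of the cytosolic enzymes without serum against log phase at -0.79, and that of the mitochondrial enzymes at 0.50 without amino acids, 0.17 without serum and 0.39 between the starvations. Members past the shift rule were then 7 higher without amino acids, and 4 higher and 13 lower without serum. MARS2 and PARS2 changed sign without amino acids, to 0.98 and 0.073. Median level differences became 0.57, 0.38 and 0.13 for the cytosolic enzymes (without amino acids and without serum against log phase, then between the starvations), and -0.058 and 0.086 for the mitochondrial ones against log phase. Scaling by the ERCC spike-ins gave position differences of 1.13, 1.53 and 0.73, mitochondrial median shifts of -0.038 without amino acids and 0.33 between the starvations, 2 members higher without amino acids, and mitochondrial level medians of -0.017 and 0.083.

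With log2(signal + 1) as the weight, position differences were 0.12, 0.077 and -0.035, and 0 members met the shift rule in any contrast in either direction. The cytosolic median shift was -0.023 without serum and 0.0096 between the starvations, and the mitochondrial one 0.069, -0.0066 and 0.033. KARS changed sign, to 0.044 without amino acids and 0.0085 without serum. This weight draws all positions together, so the fixed rule of 1 fraction is harder to meet. Without centring, cytosolic median shifts were -2.30, -1.60 and -0.72 and mitochondrial ones -2.15, -1.82 and -0.33. Members past the rule were then 38 lower and 0 higher without amino acids, 35 lower without serum and 4 lower between the starvations. Level medians without centring were -0.45, -0.25 and -0.15 for the cytosolic and -0.62, -0.15 and -0.22 for the mitochondrial enzymes. The level calls of CARS (0.53 without amino acids and 0.61 without serum) and QARS (0.82 and 0.94) were then lost in both starvations.

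Without fractions 3, 4, 21 and 22, position differences were 0.61 without amino acids and 0.48 without serum, the mitochondrial median shift without amino acids was -0.17, 0 members were higher there, and the mitochondrial level median was -0.0083. That level median was -0.037 without fractions 6, 7 and 22, -0.041 with a pseudocount of 0.1 and 0.087 with a pseudocount of 10, which also gave 0.15 for the mitochondrial and 0.052 for the cytosolic enzymes without serum. Requiring a level of 20 gave mitochondrial medians of 0.14, 0.17 and 0.059, and no level filter gave -0.16, 0.21 and -0.091. A mean signal of 10, or none, left every count and class median within the bounds set for a change.

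Leaving out each fraction in turn gave position differences of 0.51 to 1.33 without serum. Cytosolic median shifts without serum ran from -0.51 to -0.18, and mitochondrial ones from -0.61 to -0.17 without amino acids and from -0.62 to -0.39 without serum. Mitochondrial level medians ran from -0.14 to 0.045 and from 0.18 to 0.29. The count of higher members ran from 0 to 1 in each starvation, that of lower members from 4 to 8 without serum and from 0 to 1 between the starvations. Of the single calls, SARS2 was lost without fraction 9 (-0.92 without amino acids and -0.81 without serum), and without serum also without fraction 10, PARS2 between the starvations without fraction 8, 9 or 20, and CARS without serum without fraction 18 (0.99). No paired analysis was possible because each condition has 1 gradient and no test was run.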
